A study of Mus musculus with 2 samples.

Results

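The transcripts described here encode the amino acid transporters of 7 solute carrier families, Slc1a, Slc3a, Slc6a, Slc7a, Slc36a, Slc38a and Slc43a. They were chosen by the gene name printed in the array files, a family name followed by a number, on spots that are no controls. This rule found 55 genes with 95 probes, among the 27912 names and 41085 probes of the array that were kept. Slc7a6os, a neighbour of Slc7a6 that also starts with a family name, was left out, and its signal was 3821 with MEF2C-ASR and 4451 in the control.

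The cells are M/E cells, a mouse bone marrow culture made immortal by MLL/ENL, a fusion gene found in human leukaemia. The MEF2C-ASR culture carried a retroviral vector for the transcription factor MEF2C, mutated where histone deacetylases bind and thereby always active. The control culture carried the empty vector MYs-iPAC. Both had the genotype Mef2c del/-, which per the labels leaves no functional Mef2c of their own, and both were selected with puromycin. The medium contained SCF at 100 ng/ml besides IL3, GM-CSF and IL6, each at 10 ng/ml, and cells were taken 6, 24 and 48 h after it was renewed. RNA from the 3 time points was combined for each culture and hybridised to 1 array, so there is no replicate spread, no test was possible, and "higher" and "lower" describe these 2 arrays.

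Amino acid transporters set which building blocks a growing cell can take up. Some work alone, such as the sodium-coupled glutamine carriers of the Slc38a family. Others are heterodimers, in which a glycoprotein heavy subunit (Slc3a1 or Slc3a2) brings a light subunit of the Slc7a family to the cell surface. In growing and leukaemic blood cells the best known are the neutral amino acid carrier Slc1a5, the leucine exchanger Slc7a5 with Slc3a2, and the cystine exchanger Slc7a11 with Slc3a2, which feeds glutathione synthesis. Several of these genes are targets of ATF4, the factor switched on when amino acids run short.

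The promoters of Slc7a11 and of Slc3a2, its heavy subunit, are shown because the first transcript differed by up to 2.90-fold between the arrays while the other stayed within 1.5-fold. Each line gives the 250 bases before the gene's start from RefSeq on the build GRCm38.p6, at chr3:50443614-50443863 and chr19:8713898-8714147, both on the minus strand and written in the direction of transcription. Capitals mark matches to TGATGNAA, the core of the element bound by ATF4 with C/EBP factors, on either strand.
Slc7a11: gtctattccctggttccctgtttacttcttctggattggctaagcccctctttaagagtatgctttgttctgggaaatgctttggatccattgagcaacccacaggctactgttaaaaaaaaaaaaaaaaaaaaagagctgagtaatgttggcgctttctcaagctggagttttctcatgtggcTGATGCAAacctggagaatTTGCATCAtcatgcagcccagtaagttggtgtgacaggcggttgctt
Slc3a2: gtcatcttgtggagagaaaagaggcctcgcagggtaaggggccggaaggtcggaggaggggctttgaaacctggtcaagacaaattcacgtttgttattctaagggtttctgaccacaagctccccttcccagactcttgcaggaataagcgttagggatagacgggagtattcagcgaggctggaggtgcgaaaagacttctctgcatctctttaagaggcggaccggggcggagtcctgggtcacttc

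The Slc7a11 window held 2 matches that face each other, beginning 66 and 47 bases before the start, and the Slc3a2 window held none. Promoter sequence was given for 37 of the 55 genes, and Slc7a7 was the other gene with a match. The letters occur on either strand in 3 of the 58 windows of these 37 genes and in 3.45% of the 32851 promoter windows of the same length in the table. The core of the antioxidant response element, TGACNNNGC, was found on either strand in 9 of the 58 windows of these genes and in 10.2% of all windows, but not in those of Slc7a11 or Slc3a2. The MEF2 motif was found in 2 of the 58 windows, those of Slc3a1 and Slc6a5, and in 2.92% of all windows. A match describes these letters and is no evidence of binding.

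Mef2c, the gene deleted and then expressed from the vector, had a signal of 1969 with MEF2C-ASR and 795 in the control with one of its probes (2.54-fold higher). Its other probe was close to background on both arrays. The labels do not say which probe, if any, lies in the deleted or in the expressed part of the gene. All 10 markers of haematopoietic and myeloid progenitors were well above background on both arrays. Their 17 measured probes summed to a signal of 378602 with MEF2C-ASR and 279815 in the control. Of these sums, the probe of Mpo had 143027 with MEF2C-ASR and 68289 in the control. The median log2 difference was 0.28, and 14 of the 17 were above 0, against 46.3% of all measured probes. The 17 probes belong to 10 genes, so they are no independent counts. Some markers of other cell types were also well above background, mostly at low signals. Of the stromal and endothelial list 4 of 7 genes were well above background with MEF2C-ASR and 3 in the control, with a summed signal of the measured probes of 645 with MEF2C-ASR and 692 in the control, and Pdgfra, Kdr and Cdh5 were on neither array. Of the epithelial list 3 of 4 genes were seen on each array, with a sum of 291 with MEF2C-ASR and 206 in the control. Epcam was on neither array, and Cdh1 had 179 with MEF2C-ASR and 68.5 in the control (2.69-fold higher). The other measured probes of the epithelial list, of Krt18 and Krt8, stood at log2 -0.01 and -0.44. The median of the list was -0.01. Of the lymphoid list 5 of 6 genes were seen with MEF2C-ASR and 3 in the control, with a sum of 639 with MEF2C-ASR and 441 in the control, and Cd3g was on neither array. Its 3 measured probes were all above 0, with a median of 0.77, and Cd79a was 2.21-fold higher. Of the erythroid list 3 of the 4 genes found were seen on each array, with a sum of 379 with MEF2C-ASR and 432 in the control. Of its 4 measured probes 2 were above 0, and the median was -0.05. Klf1 was 1.94-fold lower, with 54.4 with MEF2C-ASR and 108 in the control. Markers of maturing myeloid cells were higher with MEF2C-ASR, as were most of the progenitor probes. The measured probes of the neutrophil list summed to a signal of 58207 with MEF2C-ASR and 33004 in the control, with a median log2 difference of 0.89 and all 5 above 0. Those of the macrophage list summed to 9468 with MEF2C-ASR and 5137 in the control, with a median of 1.14 and all 6 above 0, and Mrc1 was not well above background. The share of these cells in either culture was not measured, and the part of such markers in the differences below was not tested.

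Of the 95 transporter probes, 57 (60.0%) were well above background on both arrays, against 59.3% of all probes. Another 10 were so on the MEF2C-ASR array alone, none on the control array alone and 28 on neither. Over all probes 7.99% were seen on the MEF2C-ASR array alone. The lowest signal well above background was 20.0 on the MEF2C-ASR array and 38.3 on the control array, so that dim transcripts were easier to see on the first. By gene, 36 of 55 were measured on both arrays, 7 on the MEF2C-ASR array alone and 12 on neither.

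Among the 12 genes on neither array were Slc1a7, Slc38a5, Slc6a2, Slc6a5, Slc6a15, Slc6a18, Slc6a19, Slc7a2, Slc7a10, Slc7a12 and Slc7a13. Slc6a2 takes up noradrenaline and Slc6a5 glycine at synapses, and Slc6a19 is the main neutral amino acid carrier of gut and kidney epithelium. Signals this dim were set by background, and no difference was read from them.

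**Figure D1:**
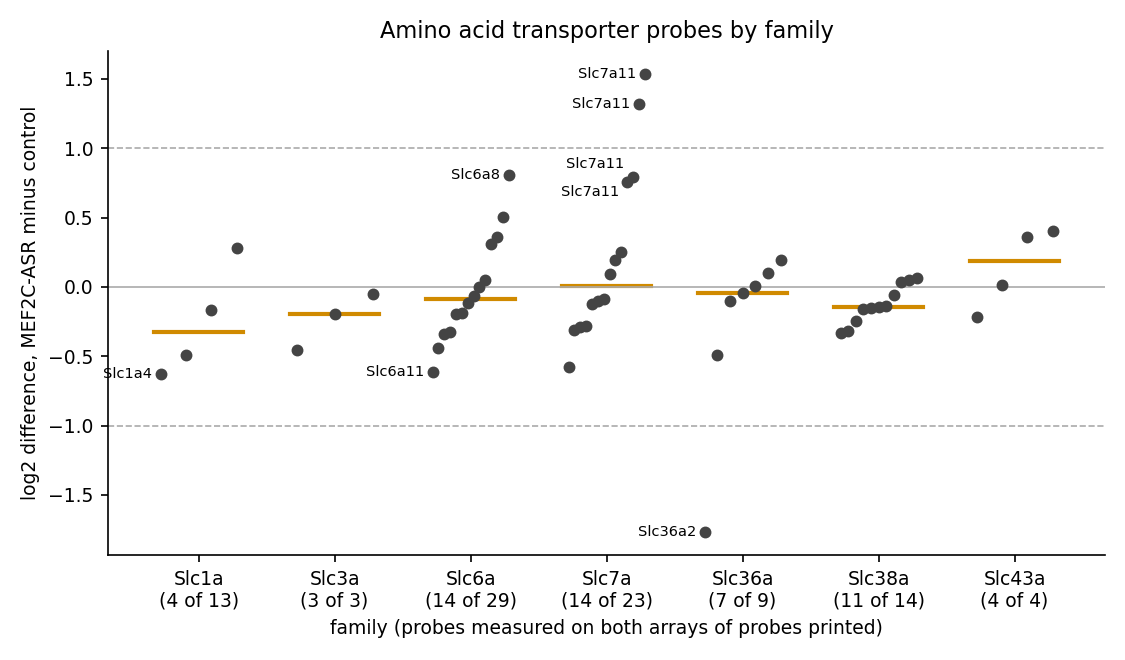
The log2 difference between the MEF2C-ASR array and the control array (vertical axis) is plotted for each transporter probe measured on both arrays, by family, with points spread sideways in order of value and a bar at each family's median. Dashed lines mark 2-fold, and probes at least 1.5-fold apart are named. Past 2-fold lie 2 probes of Slc7a11 above and 1 of Slc36a2 below.

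Most transporter transcripts differed little between the cultures. Of the 57 probes measured on both arrays, 49 (86.0%) were within 1.5-fold, against 90.9% of all measured probes. Their median log2 difference was -0.10 and the values ran from -1.77 to 1.54, beside a median of -0.02 over all 24379 measured probes. Of the 57, 23 were above 0, against 46.3% of all measured probes. Of these, 2 probes, both of Slc7a11, reached 2-fold higher in the MEF2C-ASR culture, against 1.60% of all measured probes, and 1 probe, of Slc36a2, was at least 2-fold lower, against 1.78% of all. Where both signals were at least 100, which 42 of the probes met, 1 was at least 2-fold higher, against 1.18% of all such probes, and 0 were lower, against 0.614%. At 1.5-fold the counts were 5 higher, against 4.48% of all measured probes, and 3 lower, against 4.66%. The higher ones were 4 probes of 1 gene and 1 of Slc6a8, so they are no independent counts.

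**Figure D2:**
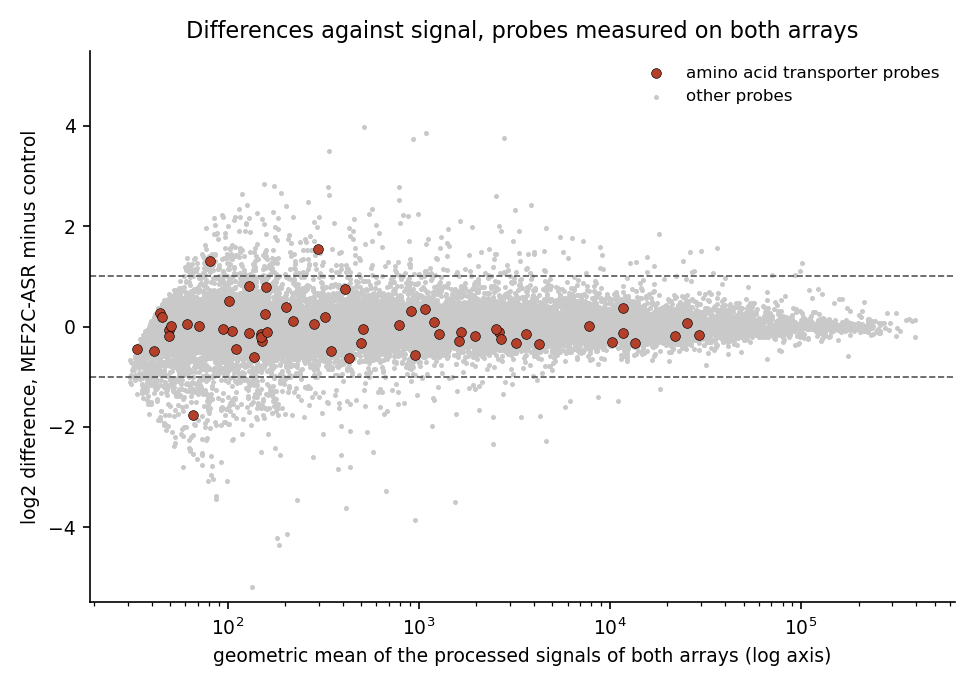
Each point is a probe measured on both arrays, with the geometric mean of its 2 processed signals on a log axis (horizontal) and its log2 difference between MEF2C-ASR and control (vertical). The transporter probes, in red, lie among the other probes, in grey, and the 3 past the dashed 2-fold lines have signals of at most 500.6 on either array.

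Slc7a11, the light subunit of the cystine and glutamate exchanger, was higher with MEF2C-ASR by all 4 of its probes. The probe at chromosome 3, 50496689 to 50496748, had a signal of 500.6 ± 50.3 with MEF2C-ASR and 176.8 ± 19.6 in the control, a difference of 2.90-fold (log2 1.54). The probe at 50567425 to 50567484 had 126.3 ± 13.3 with MEF2C-ASR and 52.0 ± 9.38 in the control, or 2.49-fold (1.32). Here ± is the error that the scanner software's model assigns to a spot, not a spread between samples, and the sources used here do not name the build of the probe positions, which is not that of the promoters above.

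The other 2 probes of Slc7a11 lie toward the low end of these positions, which on the minus strand is the 3′ side, and showed less. At 50490342 to 50490401 the signal was 529.9 ± 53.2 with MEF2C-ASR and 321.4 ± 33.1 in the control (1.69-fold, log2 0.76). At 50490980 to 50491039 it was 205.4 ± 21.0 with MEF2C-ASR and 121.4 ± 14.7 in the control (1.73-fold, log2 0.79). The probes therefore agree in direction, while the size ran from 1.69-fold to 2.90-fold. All 4 differences exceeded the software's error of the difference, which lay between 0.21 and 0.30 on the log2 scale. They also exceeded the error of spotting as measured on probes printed 10 times, 0.23 for those with a mean signal below 200 and 0.08 for those from 200 to 2000. Neither error covers the variation between cultures. With normexp background correction, fitted without spots whose local background was flagged, the probe at 50567425 stood at 0.64, below 2-fold, and that at 50496689 at 1.24.

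The heavy subunits were not higher with MEF2C-ASR. Slc3a2, the partner of most light subunits, had signals of 20308 with MEF2C-ASR and 23807 in the control with one probe (log2 -0.19), and 494.0 with MEF2C-ASR and 524.3 in the control with the other (-0.05). Slc3a1, the heavy subunit known from kidney cystine uptake, was near the background, with 28.5 with MEF2C-ASR and 40.0 in the control (-0.46). The software's error of that difference was 0.42.

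Among the other light subunits of Slc3a2 the differences were small or downward. Slc7a5, the leucine exchanger LAT1, had 9107 with MEF2C-ASR and 11608 in the control (log2 -0.31). Slc7a8, the related exchanger LAT2, had 2509 with MEF2C-ASR and 2759 in the control (-0.10). Slc7a7, which exchanges cationic for neutral amino acids and is known from macrophages and epithelia, had 777 with MEF2C-ASR and 1186 in the control. It was lower by 1.49-fold (-0.57), just short of 1.5-fold, and was the lowest of the 14 measured probes of its family. The probes of Slc7a6, a carrier of the same kind, disagreed in sign at small size, with 1231 with MEF2C-ASR and 1181 in the control (0.10) and 1446 with MEF2C-ASR and 1816 in the control (-0.29). The third Slc7a6 probe was on neither array. Slc7a10, a light subunit known from brain, was on neither array, at 10.2 with MEF2C-ASR and 7.92 in the control.

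Slc7a9, the light subunit that pairs with Slc3a1, was well above background on the MEF2C-ASR array alone. Its signal was 87.3 ± 9.69 with MEF2C-ASR and 18.6 ± 8.27 in the control, where it was not well above background. Against the control array's lowest signal well above background it was at least 2.34-fold higher. Of all probes seen on the MEF2C-ASR array alone, 3.56% had a bound of at least 2-fold, and this was so for 2 of the 10 transporter probes. With normexp fitted without flagged spots the bound of Slc7a9 was 1.62-fold. Slc7a12 was on neither array, with 4.29 with MEF2C-ASR and 8.31 in the control, nor was either probe of Slc7a13, a light subunit of kidney, with at most 8.25 with MEF2C-ASR and 8.33 in the control.

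The cationic amino acid carriers that work without a heavy subunit showed no difference of 1.5-fold. Slc7a1, the main arginine and lysine carrier of dividing cells, had 135 with MEF2C-ASR and 168 in the control (log2 -0.28). Slc7a3 had 101 with MEF2C-ASR and 110 in the control (-0.09), and Slc7a2, the carrier induced in activated macrophages, was on neither array. Arg2, the mitochondrial arginase that splits arginine, had 613 with MEF2C-ASR and 112 in the control (2.49). Slc7a4 stood at 0.26, and Slc7a14 had 1 measured probe, at 0.19. Slc7a15, a member of the Slc7a family outside this group, had 1 measured probe, with 122 with MEF2C-ASR and 136 in the control (-0.12).

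**Figure D3:**
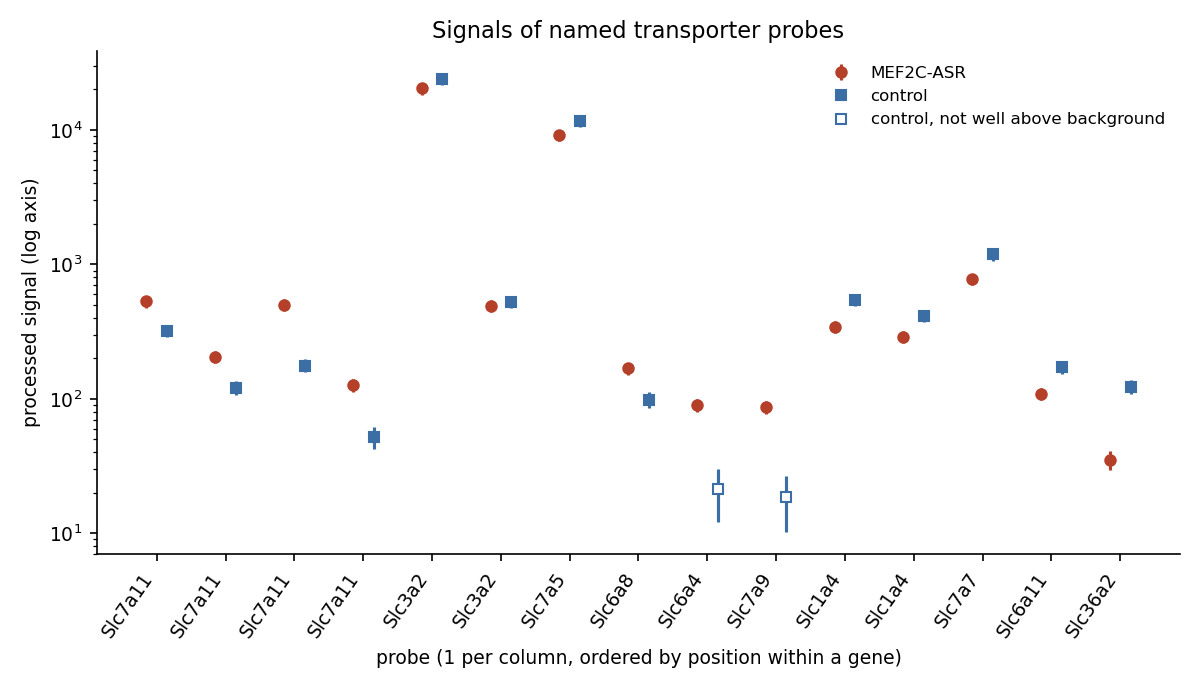
Processed signals on a log axis (vertical) are plotted for probes of 10 named genes, 1 probe per column, with MEF2C-ASR as red circles left of the control as blue squares. Bars are the scanner software's error of each spot, and open squares were not well above background. The red points of all 4 Slc7a11 probes lie above the blue ones, while those of Slc3a2 and Slc7a5 lie slightly below.

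The Slc1a family holds neutral amino acid exchangers and glutamate carriers. Slc1a5, the exchanger that brings glutamine into many leukaemic cells, had 27164 with MEF2C-ASR and 31211 in the control (log2 -0.16). Slc1a4, which carries serine, alanine and cysteine, was lower by both of its probes. They had 343 with MEF2C-ASR and 544 in the control (-0.63, or 1.55-fold lower) and 289 with MEF2C-ASR and 417 in the control (-0.49, or 1.40-fold lower). Both differences exceed the software's error of 0.21. Of the glutamate carriers known from brain, Slc1a6 was dim on both arrays with 48.3 with MEF2C-ASR and 40.8 in the control (0.28). Slc1a1, Slc1a2 and Slc1a3 were each seen by 1 probe on the MEF2C-ASR array alone. Their signals there were 24.0, 45.6 and 24.3, and in the control, where they were not well above background, 24.7, 40.4 and 37.7.

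The glutamine carriers of the Slc38a family were close to equal in both cultures. Slc38a1 was measured by 6 probes with log2 differences between -0.32 and 0.07. The probe of Slc38a1 at chromosome 15, 96577437 to 96577496, had 25671 with MEF2C-ASR and 25150 in the control. All 4 probes of Slc38a2, a carrier that cells induce when amino acids run short, were slightly lower, between -0.33 and -0.15. Its probe at 96689459 to 96689518 had 11948 with MEF2C-ASR and 15432 in the control (-0.33). Slc38a3, a liver and kidney carrier, stood at 0.05 with signals of 61.4 with MEF2C-ASR and 60.8 in the control. Of Slc38a4 1 probe was seen on the MEF2C-ASR array alone, with 32.3 there and 27.2 in the control. The array also prints family members under older clone names that the rule did not take. Among them Slc38a9, the lysosomal arginine sensor of mTORC1, had differences between -0.06 and 0.41 over 4 probes, and Slc38a10 had 23075 with MEF2C-ASR and 21515 in the control (0.14) with one probe and stood at 0.39 with the other.

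Slc36a2, a proton-coupled carrier of glycine and proline known from kidney and muscle, was the transporter furthest down. Its measured probe, at chromosome 11, 55115389 to 55115448, had 35.2 ± 5.43 with MEF2C-ASR and 123.2 ± 14.5 in the control, so it was 3.41-fold lower (log2 -1.77, software error 0.28). Its other probe was on neither array, so the value rests on a single dim spot, and normexp fitted without flagged spots gave -1.06. The related genes did not share this difference. Slc36a1, the carrier that exports amino acids from lysosomes, had 1576 with MEF2C-ASR and 1736 in the control (-0.10) with one probe. The other Slc36a1 probe was seen on the MEF2C-ASR array alone, with 45.8 there and 25.2 in the control. Both probes of Slc36a4 were slightly higher, at 0.10 and 0.20. Slc36a3, known from testis, was dim, and its 3 probes lay between -0.49 and 0.00.

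All 4 probes of the facilitated carriers of the Slc43a family were within 1.5-fold. Slc43a2, which carries branched-chain and aromatic amino acids, had 1213 with MEF2C-ASR and 968 in the control (log2 0.36) with one probe, and 229 with MEF2C-ASR and 178 in the control (0.40) with the other. Slc43a1, of the same kind, stood at -0.21. Slc43a3, which is known as a carrier of purine bases and not of amino acids, had 7683 with MEF2C-ASR and 7822 in the control (0.01).

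The Slc6a family holds sodium- and chloride-coupled carriers of neurotransmitters, osmolytes and amino acids. It had 19 genes, of which 11 were measured on both arrays. Slc6a8, the creatine carrier, had 168.3 ± 17.4 with MEF2C-ASR and 98.5 ± 13.2 in the control, or 1.75-fold higher (log2 0.81, software error 0.24). Slc6a6, the taurine carrier, was slightly higher by both probes, with 13128 with MEF2C-ASR and 10474 in the control (0.36) and 999 with MEF2C-ASR and 826 in the control (0.31). Slc6a13, a carrier of GABA and taurine, was lower by both of its probes, which overlap by position. The first has a flagged local background. They had 3736 with MEF2C-ASR and 4850 in the control (-0.34) and 2847 with MEF2C-ASR and 3662 in the control (-0.33). Slc6a9, the glycine carrier of red cell precursors and brain, had 1826 with MEF2C-ASR and 2136 in the control (-0.19).

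Dimmer members of the Slc6a family went both ways. Slc6a11, a GABA carrier of glia, had 110 with MEF2C-ASR and 172 in the control with its measured probe (log2 -0.62, or 1.53-fold lower). Its other probe was seen on the MEF2C-ASR array alone, with 32.4 there and 31.4 in the control. Slc6a12, the betaine carrier, stood at 0.50 with 119 with MEF2C-ASR and 86.3 in the control. Slc6a14 stood at -0.44, and the probes of Slc6a16, Slc6a17 and Slc6a3 lay between -0.11 and 0.05. One probe of the proline carrier Slc6a7 stood at -0.19, and its other probe was seen on the MEF2C-ASR array alone, with 46.3 there and 18.2 in the control. So was Slc6a20, with 31.5 with MEF2C-ASR and 36.8 in the control. Slc6a4, the serotonin carrier, was also seen on the MEF2C-ASR array alone, with 89.9 ± 10.1 there and 21.2 ± 9.01 in the control, which made it at least 2.41-fold higher. With normexp fitted without flagged spots this bound was 1.61-fold.

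Genes of amino acid use that are linked to the transporters were compared by 6 lists. The list of 25 genes of the ATF4 response, which includes enzymes of serine and asparagine synthesis, had 35 measured probes with a median log2 difference of 0.02. None was at least 2-fold higher and 1 was at least 2-fold lower, against 1.60% and 1.78% of all measured probes. Atf4 itself had 14184 with MEF2C-ASR and 15135 in the control (-0.06), and its target Asns, asparagine synthetase, had 48412 with MEF2C-ASR and 48126 in the control (0.04). The probe past 2-fold was that of Cth, the enzyme that makes cysteine from cystathionine, with 137 with MEF2C-ASR and 318 in the control (-1.18). Other members went both ways by less than 2-fold, with 19 of the 35 probes above 0 and 16 below, against 46.3% of all measured probes above 0. On the lower side Pycr1 had 342 with MEF2C-ASR and 688 in the control (-0.97). Shmt2 stood at -0.33, and the probes of Eif2ak4 lay between -0.37 and -0.28. On the higher side Atf3 stood at 0.64, Ddit4 at 0.58 and Ddit3 at 0.41. The probes of Cebpg, a C/EBP factor, lay between 0.12 and 0.88.

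The list of cystine and glutathione genes lay higher. Without the transporters it had 26 measured probes with a median log2 difference of 0.27. None of these was past 2-fold, against 1.60% of all measured probes higher and 1.78% lower. Hmox1, haem oxygenase, had 4231 with MEF2C-ASR and 2350 in the control (0.88). Gsr, glutathione reductase, was higher by 3 probes, at 0.65, 0.60 and 0.33. The subunits of the enzyme for the first step of glutathione synthesis lay on either side of 0, with Gclm at 0.33 and Gclc at -0.26. Gss, glutathione synthetase, stood at -0.50, and Ggt1, which breaks glutathione down outside the cell, at -0.82. Several of these genes are known in maturing myeloid cells too. The neutrophil, macrophage, progenitor and lymphoid markers given above all had medians above 0, and a link between such markers and this list was not tested.

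In the list of amino acid metabolism 54 probes were measured, with a median log2 difference of -0.16. Arg2 was the single probe at least 2-fold higher, against 1.60% of all measured probes, and 4 were at least 2-fold lower, against 1.78% of all. Besides Cth the lower ones were Gls2, a glutaminase, with 38.6 with MEF2C-ASR and 151 in the control (-1.93), Bcat1, a branched-chain aminotransferase, with 26.9 with MEF2C-ASR and 65.5 in the control (-1.25), and 1 of 2 probes of Aspg, an asparaginase (-1.21). The other Aspg probe stood at 0.03. The other Bcat1 probe was on neither array, so the values of Bcat1 and of Gls2 each rest on a single dim spot. Over the 6 lists without the transporters, 4 probes were at least 2-fold lower. This count was 2 with signals of at least 100 on both arrays and 1 with normexp fitted without flagged spots.

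In the list of amino acid sensing by mTORC1 none of 53 measured probes was past 2-fold. Of all measured probes, 1.60% were at least 2-fold higher and 1.78% at least 2-fold lower. The median of the list was -0.03, with Sesn1 and Wdr59 each at 0.01 by their probes closest to 0. Furthest apart were Nprl3, a subunit of the complex that holds mTORC1 back, at -0.84 and -0.43, and Sesn2, a leucine sensor, at 0.58 and 0.49. In that of the aminoacyl-tRNA synthetases none of 43 was past 2-fold, and the median was -0.16. Of these, 34 were below 0 and 9 above, where 46.3% of all measured probes were above 0. The 43 probes belong to 20 genes, so they are no independent counts. Both probes of Wars, at -0.53 and -0.36, and of Vars, at -0.35 and -0.33, were lower, while Nars at 0.01 and Tars at 0.02 were closest to 0. Among 26 measured probes of amino acid carriers from other families the median was 0.09. Slc32a1, the carrier that loads GABA and glycine into synaptic vesicles, had 3342 with MEF2C-ASR and 1696 in the control (1.01). It was the single probe past 2-fold there, against 1.60% of all measured probes higher and 1.78% lower. Its value lay just past 2-fold and fell short of it without scaling. It also fell short with the percentile taken over probes well above background and with spike-in scaling.

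**Figure D4:**
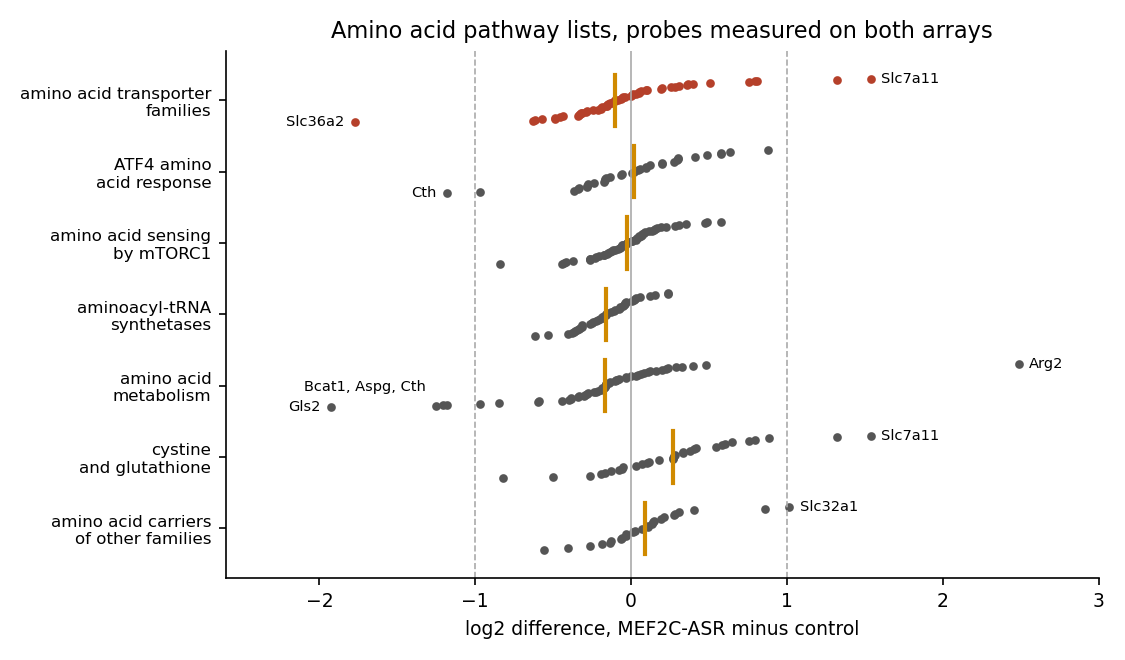
Each point is a probe measured on both arrays, with its log2 difference between MEF2C-ASR and control (horizontal), for the transporter families at the top and the 6 lists below. Bars are medians, dashed lines mark 2-fold, and the genes past it are named. The medians lie between -0.16 and 0.27, and the cystine and glutathione list, here with its transporters, lies furthest to the right.

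Of 12 genes with several measured probes, 4 had probes on both sides of 0, and in none did probes on both sides lie more than 0.3 from 0. In 31 of the 36 measured genes every measured probe was within 1.5-fold. The exceptions were Slc7a11 and Slc6a8 on the higher side and Slc1a4, Slc6a11 and Slc36a2 on the lower side. These counts by gene were not compared with counts over all genes of the arrays.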

How the data were processed

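The arrays and samples are those described above, and both arrays shared a slide and a scan. The deposited files hold a linear intensity for each spot, with its error and flags. Per the file headers, the authors ran Feature Extraction 9.5.1.1, which subtracted background, detrended and put surrogates in place of signals too dim to measure. The deposited value table held the same intensity values.

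The log2 of each processed signal was taken relative to the array's 75th percentile over non-control spots (a signal of 1240 on the MEF2C-ASR array and 1272 on the control array). Outlier spots were dropped from both arrays, spots of a probe averaged and probes of a gene kept apart. A probe was measured where it was well above background on both arrays, and none was saturated. A probe seen on 1 array was given a bound against the other array's lowest level that was well above background. A rule of 2-fold stood in place of a test. Lists were matched through RefSeq accessions, symbols and older symbols (22951, 6659 and 3109 probes). Python 3.11.15, numpy 2.4.6, pandas 2.3.3 and limma 3.58.1 were used, and the steps were tested on simulated arrays. The number of arrays limits the precision. The transporters and lists were chosen with earlier results of these data known. Values are given for members at least 1.5-fold apart or with a 2-fold bound, for heavy and light subunits, and for examples. In the lists, taken with their transporters, members past 2-fold were named, or the 2 closest to 0 where none was. Other list genes (Atf4, Asns, Pycr1, Shmt2, Eif2ak4, Atf3, Ddit4, Ddit3, Cebpg, Nprl3, Sesn2, Wars, Vars, Hmox1, Gsr, Gclm, Gclc, Gss, Ggt1) were chosen after their values were seen. A few results are not reported here. The alternatives are given in the closing section.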

Additional observations from a re-analysis of the deposited data

How the results depend on the processing

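No paired analysis was possible because each group is 1 array. The scaling, the dim-probe filter, the background correction, the spots kept and the source of values were changed in turn. Filters and the value table leave a probe's difference as it is, and scalings shift all probes alike, so normexp was the setting that could turn the 8 transporter probes at least 1.5-fold apart. Fitted without flagged spots, a setting added after the data were seen, it turned none of them. Of the transporter probes 2 were at least 2-fold higher and 1 lower. The higher count was 6 with all probes kept, 5 at 1.5-fold, 1 with signals of at least 100 on both arrays and 1 with normexp fitted without flagged spots. The lower count was 3 at 1.5-fold and 0 with signals of at least 100, where 0.614% of all probes were lower. The transporter median was -0.24 with spike-in scaling, which put the median of all measured probes at -0.16. In the other lists 2 probes were higher and 4 lower. Their higher count was 1 without scaling, 1 with the percentile taken over probes well above background, 1 with spike-in scaling, 1 with normexp without flagged spots, 5 with all probes kept and 8 at 1.5-fold. Their lower count was 2 with signals of at least 100, 1 with normexp without flagged spots and 11 at 1.5-fold. Normexp over all spots failed on the control array, where 5 spots lay far below their local background (down to -57949) and the fitted background mean was -905, against -11.1 without flagged spots. It gave 0 transporter probes higher and 29 lower, where 9439 of all probes were lower, a transporter median of -1.09, and 8 higher and 57 lower probes of the other lists. All 4 Slc7a11 probes changed sign, to -0.39, -1.77, -0.39 and -1.36, and so did Slc6a8, to -1.63. Of the 57 measured transporter probes, 42 had signals of at least 100 on both arrays, and the other 15 rest on dimmer spots.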
